A study of Mus musculus with 12 samples.

Results

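The urea cycle and the pathways that break down amino acids were followed through 46 named genes in mouse liver. The genes were listed by symbol, and all 46 were found among the 50600 genes counted and were among the 15219 tested, so none was lost to the filter on low counts. The list is by function, with no expression value in its rule, and it was drawn up with earlier results of these data known. The 12 libraries of polyadenylated liver RNA came from the mouse strain Rosa26-LSL-dCas9-p300, in 3 groups of 4. In this strain a gene for Cas9 without nuclease activity, fused to the histone acetyltransferase p300, sits in Rosa26 behind a loxP-stop-loxP cassette that Cre recombinase removes. All 3 groups carry this allele. The PBS group was injected with buffer and no virus. The control gRNA group received an adeno-associated virus (AAV, vector label AAV.Cbh.gRNA) with a control guide, and the Pdx1 gRNA group received the AAV with a guide against Pdx1, each at 1e+12 viral genomes per mouse. Animals were about 8 weeks old at tail-vein injection, and livers were taken 2 weeks later. What supplied Cre, the guide sequences and the sex of the animals are not given in the sources used here. PBS and virus groups differ in the virus and in everything it carried, and these cannot be told apart. Nothing in the labels says whether every library is a separate mouse, and the p-values therefore reflect only how far these libraries spread, which may be technical.

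Hepatocytes dispose of the nitrogen of amino acids by turning ammonia into urea, partly in mitochondria and partly in the cytosol. Most of the pathways that strip amino acids of their nitrogen and burn or convert the carbon run in the same cells, and the methionine cycle supplies methyl groups and the sulfur of cysteine. Enzymes of the urea cycle and of glutamine and histidine breakdown are enriched in hepatocytes near the portal vein, whereas glutamine synthetase and ornithine aminotransferase mark those around the central vein.

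Libraries held 11824767 to 22008046 counts. Levels are library-scaled counts (CPM) with sizes set by TMM, a method that equalises the bulk of genes, and log2 fold changes are given ± SE. The threshold for a call was an adjusted p under 0.05 in edgeR's quasi-likelihood test with Benjamini-Hochberg adjustment over the 15219 genes, and only genes past it are said to have risen or fallen. Counts of the target Pdx1 were 26, 32, 54 and 256 in Pdx1 gRNA libraries 1 to 4, 2 in control gRNA library 4 and 0 in the other 7 libraries (exact permutation over 70 assignments against either group, p = 0.0286, the smallest possible, adjusted over 3 comparisons p = 0.0429). PBS libraries 2 and 3 expressed Xist at 2.61 and 3.64 CPM and Y-linked Ddx3y at 80.8 and 70.02 CPM on total counts, while the remaining libraries showed Xist at 692 CPM or more and Ddx3y at no more than 0.187 CPM. The PBS group thus mixes both sex patterns and the virus groups do not. PBS library 1 was the lowest PBS library in 34 of 46 members and the highest in 5, against 34.6% and 38.0% of all tested genes. In 20 members (10.6% of all genes) it was at least 2-fold below the mean of PBS libraries 2 to 4. It lay below all 8 virus libraries in 6 members (29.1% of all genes) and above all 8 in 16 (28.2%). Mitochondrial genes took 8.07% of its counts, the highest share of the 12 libraries, against 3.39 to 4.43% in the other PBS libraries, and its 20 most abundant genes took 25.3%, also the highest; the part of these in its low member values was not tested. Counts are therefore also given without PBS library 1 and without PBS libraries 2 and 3.

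After control gRNA, 31 of 46 members fell against PBS, 26 of them by at least 2-fold, and 1 member, Sdsl, rose. Of all tested genes, 15.8% were called lower, 7.24% called lower by at least 2-fold and 16.3% called higher. The members' median log2 fold change was -1.11, against -0.01 over all genes, and 43 of 46 members had a negative value, against 50.5% of all genes. After Pdx1 gRNA, 26 of 46 members fell against PBS, 17 of them by at least 2-fold, and 0 rose. There, 10.4% of all genes were called lower, 4.52% lower by at least 2-fold and 11.7% higher. The median was -0.90 for the members and -0.06 for all genes. The 4 control gRNA libraries all lay below the 4 PBS libraries in 19 members (12.3% of all genes), and the 4 Pdx1 gRNA libraries did so in 15 (8.74% of all genes). Both comparisons use the same 4 PBS libraries. By call, 24 members fell in both, 7 fell only after control gRNA, 2 (Oat and Amdhd1) only after Pdx1 gRNA, and 12 were called in neither. The same joint counts were not made over all genes, so how unusual these numbers are was not tested. In bulk RNA, fewer cells of a type and less RNA per cell cannot be told apart.

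Without PBS library 1, 37 members fell after control gRNA and 36 after Pdx1 gRNA, and the share of all genes called lower was also higher, at 21.4% and 17.3%. Without PBS libraries 2 and 3, which leaves libraries 1 and 4, 12 and 5 members fell, and 7.05% and 3.40% of all genes were called lower. In either direction, 32.1% and 22.1% of all genes were called with every library in the fit. Leaving out 1 library at a time, 24 of the 31 lower calls after control gRNA and 12 of the 26 after Pdx1 gRNA held in all 12 fits. How many of all genes called lower held in this way was not counted. The count of members that fell after Pdx1 gRNA dropped to 15, 14 and 15 without PBS library 2, 3 or 4. It dropped to 16, 12 and 13 without Pdx1 gRNA library 1, 2 or 4. The share of all genes called lower dropped too, from 10.4% to 6.13%, 6.43% and 7.51%, and to 7.44%, 6.17% and 6.24%. Scaling by total counts alone moved the control gRNA median of all genes from -0.01 to 0.34, and the Pdx1 gRNA median from -0.06 to 0.22. It changed the calls over all genes from 2488 higher and 2399 lower to 4432 and 1064, and from 1787 and 1583 to 3062 and 705. Upper-quartile factors gave 3001 higher and 1854 lower after control gRNA, with the median of all genes at 0.10. On total counts, 24 and 19 members fell (6.99% and 4.63% of all genes), 2 and 1 rose, and the members' medians were -0.74 and -0.64.

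**Figure D1:**
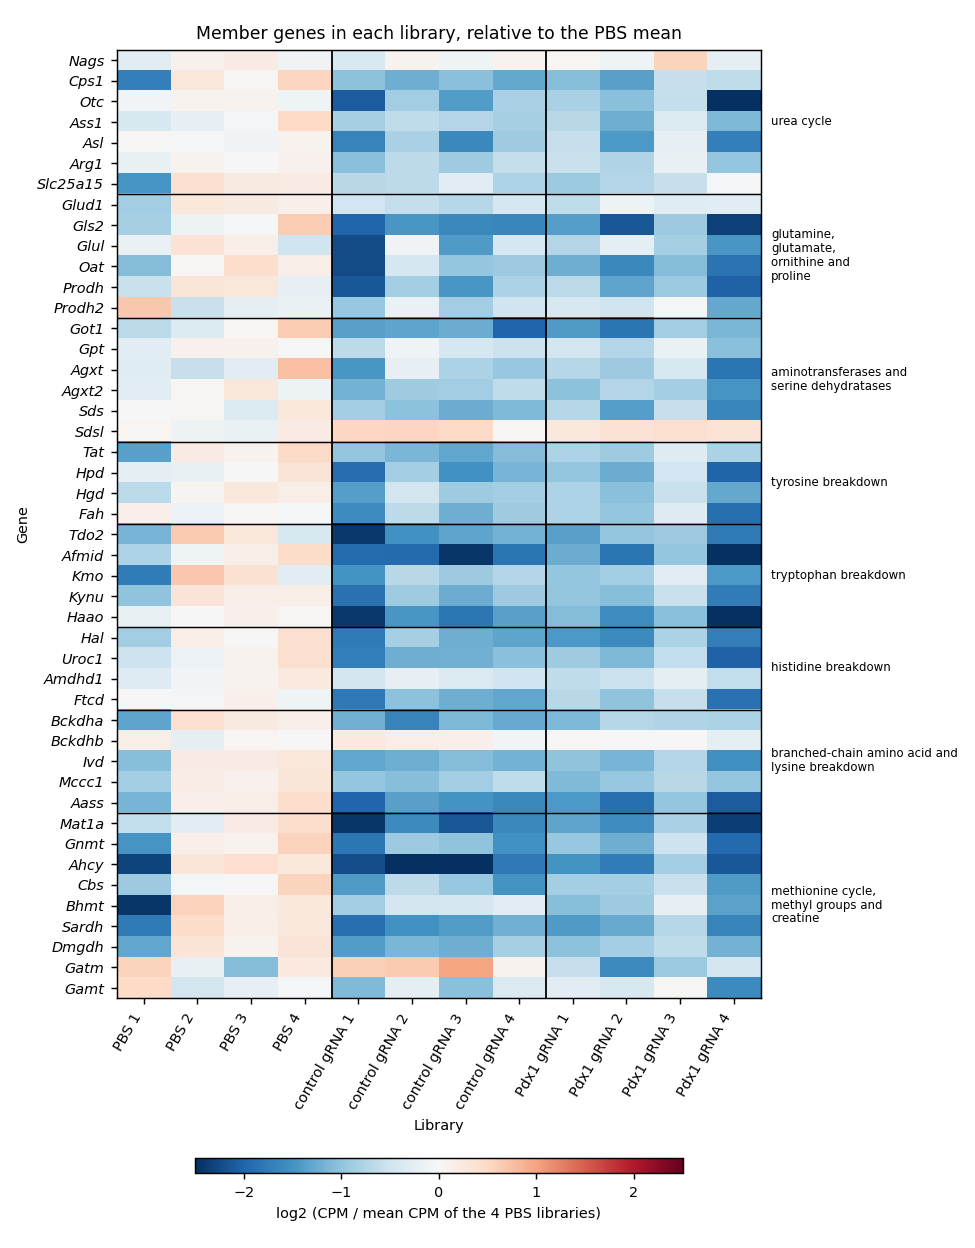
Heat map of the 46 member genes (rows, grouped by role) in the 12 libraries (columns); colour is log2 of CPM over the mean CPM of the 4 PBS libraries. Blue fills most rows of the 8 virus libraries, PBS library 1 is blue in many rows, and Nags, Sdsl, Bckdhb and Gatm stand out as rows without a shared fall.

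Control gRNA library 1 and Pdx1 gRNA library 4 were the lowest virus libraries. Across members, the median log2 difference from the PBS mean was -1.30 and -1.44 in them, and -0.50 in Pdx1 gRNA library 3, the highest of the virus libraries. Control gRNA libraries 1 to 4 had 35, 22, 31 and 26 members below the lowest PBS library, against 25.0, 23.7, 23.1 and 19.8% of all genes, and Pdx1 gRNA libraries 1 to 4 had 26, 27, 16 and 32, against 17.7, 21.7, 20.9 and 27.1%. Leaving out control gRNA library 1 and Pdx1 gRNA library 4 together, which was tried once these values were known, left 28 and 17 members that fell (13.01% and 6.21% of all genes). The 46 genes made up 2.44 to 4.77% of a PBS library, 2.11 to 2.4003% of a control gRNA library and 2.11 to 2.89% of a Pdx1 gRNA library, with PBS library 1 at the low end of the PBS range.

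Divided by exon length (RPKM, so that genes can be ranked), the highest members after PBS were Ass1 at 1767 ± 502 RPKM, Gnmt at 1538 ± 721 RPKM, Hpd at 1310.1 ± 242 RPKM and Tat at 1303 ± 560.2 RPKM (SD, n = 4). Neighbours among these 4 differed by less than their SDs. The lowest were Sdsl at 12.7 ± 1.56, Mccc1 at 7.37 ± 2.23 and Gatm at 4.35 ± 1.85 RPKM. After control gRNA the order began with Ass1 at 1048 ± 67.8 RPKM and Gnmt at 641 ± 184 RPKM, and Mat1a had moved from 919.5 ± 292 to 247 ± 68.0 RPKM. Afmid, at 15.6 ± 5.18 RPKM after PBS, was at 3.87 ± 0.667 RPKM after control gRNA.

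Promoter sequence is shown for 4 members with different responses: Ahcy, with the largest fall after control gRNA, Aass, which fell in both comparisons, Tat, which fell only after control gRNA, and Nags, which was called in neither. Sdsl, the member that rose, is not among them. The windows are the 250 bases before the annotated start, from RefSeq on GRCm38.p6, written 5′ to 3′ on the gene's strand. Ahcy is at chr2:155074498-155074747 on the minus strand, Aass at chr6:23132987-23133236 on the minus strand, Tat at chr8:109990186-109990435 on the plus strand and Nags at chr11:102145263-102145512 on the plus strand. Capitals mark matches on either strand to the motifs searched.
Ahcy: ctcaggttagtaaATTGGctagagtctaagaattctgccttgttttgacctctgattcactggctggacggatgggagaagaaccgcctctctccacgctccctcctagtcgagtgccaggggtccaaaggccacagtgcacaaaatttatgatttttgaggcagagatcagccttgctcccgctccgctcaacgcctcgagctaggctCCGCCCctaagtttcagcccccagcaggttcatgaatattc
Aass: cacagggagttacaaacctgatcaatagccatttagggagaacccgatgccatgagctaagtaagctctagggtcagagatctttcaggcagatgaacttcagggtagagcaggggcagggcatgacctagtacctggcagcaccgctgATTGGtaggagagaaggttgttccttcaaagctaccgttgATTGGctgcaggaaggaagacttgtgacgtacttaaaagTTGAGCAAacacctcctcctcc
Tat: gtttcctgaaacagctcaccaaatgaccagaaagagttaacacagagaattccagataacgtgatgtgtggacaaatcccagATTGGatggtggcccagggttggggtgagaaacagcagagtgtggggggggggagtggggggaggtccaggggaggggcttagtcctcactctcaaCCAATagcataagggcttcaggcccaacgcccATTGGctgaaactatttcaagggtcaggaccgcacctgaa
Nags: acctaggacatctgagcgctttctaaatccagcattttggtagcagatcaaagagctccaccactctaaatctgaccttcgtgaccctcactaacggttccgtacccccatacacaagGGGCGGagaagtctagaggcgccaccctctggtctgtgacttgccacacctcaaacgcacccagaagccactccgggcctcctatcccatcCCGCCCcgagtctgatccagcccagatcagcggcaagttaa
In the Ahcy window the capitals are a CCAAT box (CCAAT, here on the opposite strand) and an Sp1 box (GGGCGG, opposite strand). Aass has 2 CCAAT boxes and a match to the C/EBP motif TTGCNNAA, Tat has 3 CCAAT boxes, and Nags has 2 Sp1 boxes. The table held 37 of the 46 members in 40 windows, beside 32841 windows in all. CCAAT was present in 45% of the members' windows and 33.9% of all windows, GGGCGG in 40% and 32.7%, TATAAA in 15% and 12.4%, and TTGCNNAA in 10% and 9.57%. Overlapping matches were allowed. Matches to the direct repeat read by HNF4 and PPAR factors, the glucocorticoid receptor element, the HNF1 palindrome and the cyclic AMP response element TGACGTCA were found in 0 of the 40 windows and in 0.338%, 0.387%, 0.00913% and 1.55% of all windows.

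Of the 7 urea cycle genes, 5 fell after control gRNA (median log2 fold change -0.78) and 2 after Pdx1 gRNA (median -0.81). Otc, which joins carbamoyl phosphate to ornithine, was at 499.9, 554, 556 and 483 CPM in PBS libraries 1 to 4, 124, 286, 199 and 299 in the control gRNA libraries and 300.2, 255, 346 and 91.2 in the Pdx1 gRNA libraries. All 8 virus libraries lay below all PBS libraries, and the log2 fold changes were -1.21 ± 0.36 (adjusted p = 0.0226) and -1.08 ± 0.36 (adjusted p = 0.0472). Asl, which splits argininosuccinate into arginine and fumarate, was at 778, 733, 721 and 813 CPM after PBS, 239, 436, 249 and 412 after control gRNA and 512, 282, 661 and 234 after Pdx1 gRNA. Again no virus library reached the PBS range, with -1.19 ± 0.32 (adjusted p = 0.014) and -0.85 ± 0.32, the latter not called (adjusted p = 0.072). Further values keep this order, libraries 1 to 4 after PBS, then control gRNA, then Pdx1 gRNA, and pairs of log2 fold changes give control gRNA before Pdx1 gRNA, each against PBS. Arg1, the arginase that releases urea, was at 1599, 1945, 1807 and 1959.9, then 879.9, 1165, 988 and 1209.8, then 1243, 1082, 1609 and 918 CPM. It fell after control gRNA (-0.78 ± 0.21, adjusted p = 0.0133), and after Pdx1 gRNA it was at -0.59 ± 0.21 (adjusted p = 0.0581), where Pdx1 gRNA library 3 lay inside the PBS range. Ass1, which makes argininosuccinate, was at 3239.6, 3718, 4099.7 and 6004, then 2401, 2749, 2563 and 2409, then 2641, 1825, 3328 and 1952 CPM and fell in both comparisons, -0.75 ± 0.25 (adjusted p = 0.0379) and -0.81 ± 0.25 (adjusted p = 0.0382).

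Cps1, the entry enzyme that fixes ammonia in mitochondria, showed how PBS library 1 bears on this group. PBS library 1 was at 1379 CPM and PBS libraries 2 to 4 at 5526, 4596 and 6569 CPM, while the virus libraries spanned 1773 to 3024 CPM, between the former and the latter. Cps1 fell after control gRNA (-1.14 ± 0.38, adjusted p = 0.035) and was not called after Pdx1 gRNA (-0.87 ± 0.37, adjusted p = 0.114). The urea cycle counts without PBS library 1 were 6 and 5 of 7, and Slc25a15, the mitochondrial ornithine carrier, was among them; with all libraries it was at -0.59 ± 0.33 and -0.54 ± 0.33. Leaving out PBS libraries 2 and 3 gave 0 and 0. Nags, which makes the activator of Cps1, was at 50.2, 64.8, 69.6 and 56.5 CPM after PBS and at -0.06 ± 0.18 and 0.10 ± 0.18, with overlapping groups throughout. Of the calls, those of Asl and Arg1 held in 12 of 12 fits that left out 1 library and that of Otc after control gRNA in 10, lost without control gRNA library 1 or 3 (adjusted p up to 0.0568). The call of Cps1 held in 5 of 12 fits and was lost without PBS library 2, 3 or 4 or any control gRNA library (adjusted p up to 0.0992). Ass1 after control gRNA held in 4, lost without PBS library 2, 3 or 4 or control gRNA library 1, 2, 3 or 4 or Pdx1 gRNA library 1 (adjusted p up to 0.116). After Pdx1 gRNA, Ass1 and Otc each held in 3 and were lost without PBS library 2, 3 or 4 or control gRNA library 2, 3 or 4 or Pdx1 gRNA library 1, 2 or 4 (adjusted p up to 0.112 and 0.0947).

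**Figure D2:**
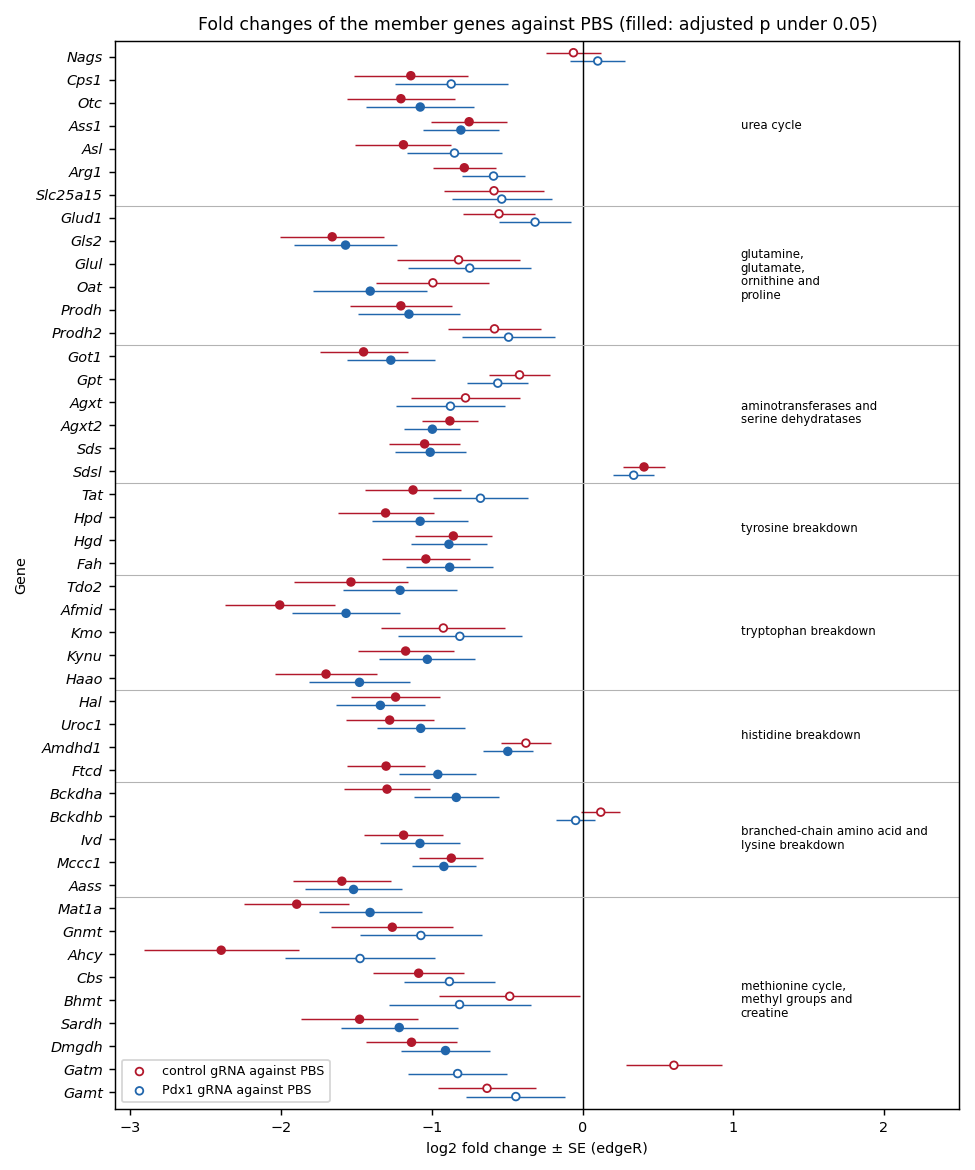
Log2 fold change ± SE (x axis, edgeR) of each member (rows) after control gRNA (red) and after Pdx1 gRNA (blue) against the same PBS libraries; filled points have an adjusted p under 0.05. Filled points lie left of 0 except that of Sdsl after control gRNA at 0.41, and Ahcy after control gRNA lies farthest left at -2.398.

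Among the genes of glutamine, glutamate, ornithine and proline, 2 of 6 fell after control gRNA (median -0.91) and 3 of 6 after Pdx1 gRNA (median -0.95). Gls2, the liver glutaminase that feeds ammonia to the urea cycle, was at 323, 526, 568 and 891 CPM after PBS, 146, 209, 188 and 186 after control gRNA and 223, 131, 307 and 114 after Pdx1 gRNA. Every virus library was below every PBS library, and the falls of -1.66 ± 0.34 (adjusted p = 0.00392) and -1.57 ± 0.34 (adjusted p = 0.00772) held in all 12 fits that left out 1 library. They also held without PBS libraries 2 and 3. Prodh, proline dehydrogenase, was at 164, 297, 296 and 211 CPM, then 55.4, 135, 88.8 and 140.3, then 152, 96.6, 128 and 59.3, again without overlap. Its log2 fold changes were -1.21 ± 0.34 (adjusted p = 0.0168) and -1.15 ± 0.34 (adjusted p = 0.0282); the latter call was lost without PBS library 2 or 3 or Pdx1 gRNA library 2 or 4 (adjusted p up to 0.0742). Oat, ornithine aminotransferase, was at 439.6, 965, 1267 and 1051 CPM after PBS, 199, 700.2, 474 and 498 after control gRNA and 400.0, 304, 439.6 and 259 after Pdx1 gRNA. The control gRNA libraries overlapped PBS (-0.99 ± 0.38, adjusted p = 0.0593), and the highest Pdx1 gRNA library, at 439.57 CPM, lay just under PBS library 1 at 439.61 CPM (-1.41 ± 0.38, adjusted p = 0.02). That call was lost without PBS library 3 or Pdx1 gRNA library 2 or 4 (adjusted p up to 0.0585). Glul, the glutamine synthetase that captures ammonia in pericentral cells, ranged from 229 to 1011 CPM after control gRNA and was not called (-0.82 ± 0.41 and -0.75 ± 0.41). Glud1, glutamate dehydrogenase (-0.55 ± 0.24 and -0.32 ± 0.24), and Prodh2, hydroxyproline dehydrogenase (-0.58 ± 0.31 and -0.49 ± 0.31), were also not called. In fits without PBS library 1, 4 of 6 fell in each comparison, Glud1 among them, and without PBS libraries 2 and 3 only Gls2 did.

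Of the aminotransferases and serine dehydratases, 3 of 6 fell in each comparison (medians -0.83 and -0.94), the genes being Got1, Agxt2 and Sds both times. Got1, cytosolic aspartate aminotransferase, was at 224, 282, 369 and 558 CPM after PBS, 139, 143, 151 and 90.1 after control gRNA and 134, 101, 196 and 162 after Pdx1 gRNA. Its virus libraries all lay below PBS, with -1.45 ± 0.29 (adjusted p = 0.00334) and -1.27 ± 0.29 (adjusted p = 0.00949). Agxt2, a mitochondrial aminotransferase that uses glyoxylate, was at 157, 195, 228 and 173, then 82.7, 101, 103 and 121, then 91.9, 113, 104 and 67.9 CPM, and likewise did not overlap (-0.88 ± 0.19, adjusted p = 0.00428, and -0.997 ± 0.19, adjusted p = 0.00348). Sds, serine dehydratase, turns serine into pyruvate and ammonia. It was at 395, 405, 313 and 482 CPM, then 222, 196, 168 and 185, then 243, 153, 267 and 129, also below every PBS library (-1.05 ± 0.23, adjusted p = 0.00573, and -1.01 ± 0.23, adjusted p = 0.0101). These 3 genes fell in both comparisons in all 12 fits that left out 1 library, without PBS library 1 and without PBS libraries 2 and 3. Sdsl, a paralog of Sds on the same chromosome, went the other way: it was at 19.7, 17.5, 16.9 and 22.0 CPM after PBS, 27.2, 27.5, 26.9 and 19.5 after control gRNA and 23.0, 24.3, 25.2 and 24.0 after Pdx1 gRNA. It rose after control gRNA (0.41 ± 0.14, adjusted p = 0.0381), although control gRNA library 4 overlapped PBS, and was not called after Pdx1 gRNA (0.34 ± 0.14, adjusted p = 0.097), where the groups did not overlap (12.7% of all genes were higher without overlap). The call held in 3 of 12 fits that left out 1 library, those without PBS library 1 or 4 or control gRNA library 4 (adjusted p up to 0.116). Gpt, alanine aminotransferase (-0.42 ± 0.20 and -0.56 ± 0.20), and Agxt, which detoxifies glyoxylate in peroxisomes (-0.78 ± 0.36 and -0.88 ± 0.36), were not called.

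All 4 genes of tyrosine breakdown fell after control gRNA (median -1.08), and 3 of 4 after Pdx1 gRNA (median -0.88). Tat, the aminotransferase that opens the pathway, was at 1223, 3615, 3325 and 4369.5 CPM after PBS, 1574, 1415, 1269 and 1487 after control gRNA and 1831, 1696, 2507 and 1802 after Pdx1 gRNA. All virus libraries lay above PBS library 1 and below PBS libraries 2 to 4. It fell after control gRNA (-1.13 ± 0.32, adjusted p = 0.018), a call lost without PBS library 4 or control gRNA library 3 (adjusted p up to 0.0528), and not after Pdx1 gRNA (-0.68 ± 0.32, adjusted p = 0.143). Hpd, the dioxygenase that makes homogentisate, was at 2390.3, 2436, 2821 and 3504 CPM, then 740.1, 1545, 977 and 1244, then 1406, 1174, 2001 and 701. The groups did not overlap, with -1.31 ± 0.32 (adjusted p = 0.00883) and -1.08 ± 0.32 (adjusted p = 0.0291). Fah, which completes the pathway and whose loss causes tyrosinemia, was at 789, 652, 751 and 699.8, then 242, 461, 312 and 392, then 426, 369, 579 and 196 CPM, also without overlap (-1.04 ± 0.29, adjusted p = 0.0169, and -0.88 ± 0.29, adjusted p = 0.0452). Hgd, homogentisate dioxygenase, was at 421, 702, 810.1 and 756, then 259, 491, 363 and 371, then 393, 328, 458 and 276 CPM (-0.86 ± 0.25, adjusted p = 0.022, and -0.89 ± 0.25, adjusted p = 0.0261), and PBS library 1 lay among the virus libraries. After control gRNA the calls of Hpd and Fah held in all 12 fits that left out 1 library and that of Hgd in 8, lost without PBS library 3 or 4 or control gRNA library 1 or 3 (adjusted p up to 0.0633). After Pdx1 gRNA the call of Hpd held in 7 fits, lost without PBS library 3 or 4 or Pdx1 gRNA library 1, 2 or 4 (adjusted p up to 0.0734), and that of Hgd in 7, lost without PBS library 2, 3 or 4 or Pdx1 gRNA library 2 or 4 (up to 0.0745). That of Fah held in 3, lost without PBS library 1, 2, 3 or 4 or control gRNA library 3 or 4 or Pdx1 gRNA library 1, 2 or 4 (up to 0.0949). Without PBS library 1, Tat, Hpd and Hgd fell after Pdx1 gRNA and Fah did not, and without PBS libraries 2 and 3 the counts were 1 (Hpd) and 0.

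With all libraries in the fit, tryptophan breakdown had the lowest median of the 8 role groups in both comparisons, -1.54 after control gRNA and -1.21 after Pdx1 gRNA. In each, 4 of 5 genes fell. The groups were not ranked in the other fits. Afmid, the formamidase that makes kynurenine (ENSMUSG00000017718.15, chromosome 11, 117825924 to 117839908, plus strand, mm10), was at 32.4, 51.2, 60.9 and 76.2 CPM in the PBS libraries, 14.5, 14.4, 10.3 and 15.6 after control gRNA and 23.5, 15.6, 28.3 and 7.06 after Pdx1 gRNA. Its mean went from 55.2 ± 18.3 to 13.7 ± 2.36 and 18.6 ± 9.33 CPM (SD, n = 4), without overlap, a fall of 4.03-fold (-2.01 ± 0.36, adjusted p = 0.00198) and 2.97-fold (-1.57 ± 0.36, adjusted p = 0.00964). Haao, which oxidises hydroxyanthranilate on the way to NAD, was at 568, 639.9, 707 and 659 CPM, then 120.39, 236.23, 184.4 and 249.996, then 303, 219, 310.2 and 90.5. PBS library 1 was close to the other PBS libraries here, and all virus libraries were at most 310.2 CPM (-1.70 ± 0.34, adjusted p = 0.00321, and -1.48 ± 0.34, adjusted p = 0.00938). Tdo2, the dioxygenase that opens the tryptophan ring, was at 763, 2677, 2084 and 1301, then 319, 598, 686 and 748, then 670.1, 868, 911 and 498 CPM. PBS libraries 2 and 3 were its highest, and it fell in both comparisons (-1.54 ± 0.38, adjusted p = 0.00945, and -1.21 ± 0.38, adjusted p = 0.0369). Kynu, kynureninase, was at 108, 269.9, 244 and 244, then 59.0, 117, 91.4 and 116, then 109.9, 103, 147 and 64.2 CPM (-1.17 ± 0.32, adjusted p = 0.0147, and -1.03 ± 0.32, adjusted p = 0.0353), with PBS library 1 inside the virus range. Kmo, kynurenine monooxygenase, was not called (-0.92 ± 0.41 and -0.81 ± 0.41), with PBS libraries from 88.3 to 471 CPM. As for Tdo2, PBS libraries 2 and 3 were its highest. The 4 calls after control gRNA held in all 12 fits that left out 1 library. After Pdx1 gRNA those of Afmid and Haao did, while those of Tdo2 and Kynu held in 6 each (adjusted p up to 0.116 and 0.0917) and were lost without PBS library 2 or 3 or Pdx1 gRNA library 1, 2 or 4, Tdo2 also without control gRNA library 2 and Kynu without PBS library 4. In fits without PBS library 1 all 5 fell in both comparisons, and without PBS libraries 2 and 3 the counts were 2 (Afmid and Haao) and 0.

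Histidine breakdown fell in 3 of 4 genes after control gRNA (median -1.26) and in 4 of 4 after Pdx1 gRNA (median -1.02). Ftcd, which passes the last carbon of histidine to folate, was at 708, 699, 783 and 666 CPM after PBS, 206, 352, 307 and 291 after control gRNA and 439.7, 353, 477 and 197 after Pdx1 gRNA. The 4 PBS libraries were close together and every virus library was below them (-1.30 ± 0.26, adjusted p = 0.00303, and -0.96 ± 0.26, adjusted p = 0.019). Uroc1, urocanase, was at 625, 808, 942 and 1180.3, then 267, 379, 388 and 429, then 482, 406, 581 and 219 CPM, again separated (-1.28 ± 0.29, adjusted p = 0.00638, and -1.07 ± 0.29, adjusted p = 0.0208). Hal, the ammonia lyase that starts the pathway, was at 358, 736, 658 and 862, then 193, 369, 282 and 262, then 241, 218, 376 and 197 CPM. PBS library 1 overlapped the virus libraries, and Hal fell in both comparisons (-1.24 ± 0.30, adjusted p = 0.00797, and -1.34 ± 0.30, adjusted p = 0.00824). Amdhd1, the imidazolonepropionase between Uroc1 and Ftcd, had the smallest values of this group, -0.38 ± 0.16 (adjusted p = 0.0947) and -0.50 ± 0.16 (adjusted p = 0.0459). Its call held in 2 of 12 fits that left out 1 library, those without PBS library 1 or Pdx1 gRNA library 3 (adjusted p up to 0.122), and that of Uroc1 after Pdx1 gRNA was lost without PBS library 4 or Pdx1 gRNA library 2 (adjusted p up to 0.0579). Without PBS libraries 2 and 3 the counts were 2 (Uroc1 and Ftcd) and 0.

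For branched-chain amino acids and lysine, 4 of 5 genes fell in each comparison (medians -1.19 and -0.92). Aass, which joins lysine to ketoglutarate and splits the product, was at 187, 452, 459.5 and 562 CPM after PBS, 105, 161, 148 and 135 after control gRNA and 154, 112, 214 and 98.7 after Pdx1 gRNA. It fell 3.03-fold (-1.60 ± 0.32, adjusted p = 0.0035) and 2.87-fold (-1.52 ± 0.32, adjusted p = 0.00682), and only Pdx1 gRNA library 3 exceeded PBS library 1. Ivd, isovaleryl-CoA dehydrogenase of leucine breakdown, was at 139, 337, 339 and 356, then 119.8, 126, 138 and 129.8, then 146, 131, 176 and 101 CPM (-1.19 ± 0.26, adjusted p = 0.0055, and -1.08 ± 0.26, adjusted p = 0.0127). Mccc1, a subunit of the next leucine enzyme, was at 44.8, 91.7, 87.2 and 99.3, then 41.5, 38.8, 44.3 and 51.9, then 37.6, 41.8, 50.1 and 41.1 CPM (-0.87 ± 0.21, adjusted p = 0.00866, and -0.92 ± 0.21, adjusted p = 0.0098). For Ivd and Mccc1, PBS libraries 2 to 4 were well above every virus library and PBS library 1 was beside them. Bckdha and Bckdhb encode the alpha and beta chains of the branched-chain keto acid dehydrogenase, and their values parted. Bckdha was at 37.9, 124, 111 and 103, then 40.6, 29.7, 43.4 and 39.1, then 42.9, 57.0, 56.0 and 54.3 CPM and fell in both comparisons (-1.30 ± 0.28, adjusted p = 0.00524, and -0.84 ± 0.28, adjusted p = 0.0497). Bckdhb stayed between 93.5 and 131.8 CPM in all 12 libraries and was not called (0.12 ± 0.13 and -0.05 ± 0.13). The call of Bckdha after Pdx1 gRNA held in 1 of 12 fits that left out 1 library, the fit without PBS library 1 (adjusted p up to 0.139 in the others), and the other 7 calls of this group held in all 12. Without PBS libraries 2 and 3 the counts were 1 (Aass) and 0.

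The methionine cycle held the largest fall. Of its 9 genes, with methyl-group and creatine genes, 6 fell after control gRNA (median -1.14) and 3 after Pdx1 gRNA (median -0.91). Ahcy (ENSMUSG00000027597.15, chromosome 2, 155059310 to 155074497, minus strand, mm10) clears S-adenosylhomocysteine, the product that inhibits methyltransferases. It was at 345, 2132, 2299 and 2099 CPM in PBS libraries 1 to 4, 372, 211, 226 and 495 in the control gRNA libraries and 609.9, 513, 952 and 394 in the Pdx1 gRNA libraries. PBS library 1 lay within the control gRNA range and below all Pdx1 gRNA libraries, while PBS libraries 2 to 4 were at least 2099 CPM and no virus library exceeded 952 CPM. The mean went from 1719 ± 920.0 to 326 ± 134 CPM (SD, n = 4), 5.27-fold lower (-2.398 ± 0.51, adjusted p = 0.00467). After Pdx1 gRNA it was 617 ± 240.1 CPM and not called (-1.48 ± 0.50, adjusted p = 0.0502, and 0.00177 without PBS library 1). Mat1a (ENSMUSG00000037798.6, chromosome 14, 41105381 to 41124412, plus strand, mm10), the liver enzyme that makes S-adenosylmethionine, was at 1926, 2451, 3421 and 4001 CPM, then 550.0, 983, 665 and 969.5, then 1182, 1003, 1679 and 576. All virus libraries lay below all PBS libraries (-1.90 ± 0.35, adjusted p = 0.00205, and -1.41 ± 0.34, adjusted p = 0.0124).

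Sardh and Dmgdh, which strip methyl groups from sarcosine and dimethylglycine in mitochondria, fell in both comparisons. Sardh was at 356, 1674, 1369.9 and 1474 CPM after PBS, 331, 424, 465 and 527 after control gRNA and 456, 510.2, 746 and 385 after Pdx1 gRNA (-1.48 ± 0.39, adjusted p = 0.0127, and -1.22 ± 0.39, adjusted p = 0.0398). Dmgdh was at 228, 714, 601 and 706, then 215, 255, 240.3 and 314, then 277, 311, 360.3 and 249 CPM (-1.14 ± 0.30, adjusted p = 0.0128, and -0.91 ± 0.30, adjusted p = 0.0444). In both, 7 of 8 virus libraries were above PBS library 1 and all 8 were below PBS libraries 2 to 4. Gnmt, which uses up surplus S-adenosylmethionine, and Cbs, which commits homocysteine to cysteine, fell after control gRNA (-1.26 ± 0.40, adjusted p = 0.0306, and -1.09 ± 0.30, adjusted p = 0.0167) and were not called after Pdx1 gRNA (-1.07 ± 0.40 and -0.88 ± 0.30). Bhmt, which remakes methionine from betaine, was at 409 CPM in PBS library 1 against 2474 to 3317 CPM in the others, and was not called (-0.48 ± 0.47 and -0.82 ± 0.47). Without PBS library 1 it was called lower in both, at -0.83 (adjusted p = 0.025) and -1.16 (adjusted p = 0.00616). Gamt, which completes creatine, was not called (-0.63 ± 0.33 and -0.44 ± 0.33). The calls of Ahcy, Mat1a, Sardh and Dmgdh after control gRNA and of Mat1a after Pdx1 gRNA held in all 12 fits that left out 1 library. Gnmt held in 7 (adjusted p up to 0.0876, lost without PBS library 2, 3 or 4 or control gRNA library 1 or 4) and Cbs in 11 (0.0511 without PBS library 4). After Pdx1 gRNA, Sardh held in 3, lost without PBS library 2, 3 or 4 or control gRNA library 2, 3 or 4 or Pdx1 gRNA library 1, 2 or 4 (adjusted p up to 0.108), and Dmgdh in 1, the fit without PBS library 1 (adjusted p up to 0.118 in the others). Without PBS library 1, 7 of 9 fell in each comparison, and without PBS libraries 2 and 3 the counts were 2 (Ahcy and Mat1a) and 1 (Gatm).

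**Figure D3:**
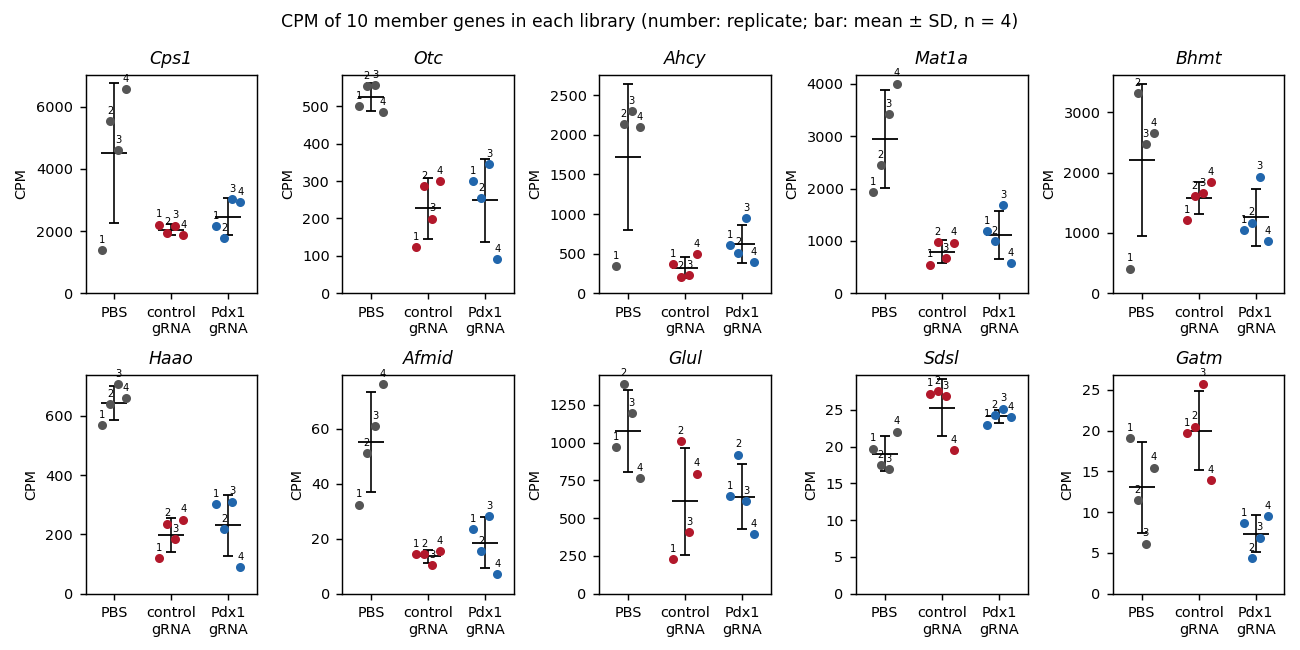
CPM (y axis, from 0) of 10 members in each library, with replicate numbers at the points and mean ± SD bars (n = 4) for PBS (grey), control gRNA (red) and Pdx1 gRNA (blue). Cps1, Ahcy and Bhmt show PBS library 1 far below PBS libraries 2 to 4, Otc, Mat1a, Haao and Afmid show PBS separated from all virus libraries, and Gatm shows the control gRNA libraries (13.9 to 25.8 CPM) above the Pdx1 gRNA libraries (4.35 to 9.499 CPM).

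Between the virus groups, 0 of the 46 members differed past the threshold. In edgeR's test 0 of 15219 genes were called (0%), and 918 (6.03%) had an unadjusted p under 0.05. The target Pdx1, which differed between the virus groups in the permutation test above, was thus not called by edgeR either. The members' median log2 difference, Pdx1 gRNA over control gRNA, was 0.14 (all genes -0.01), with 33 members positive and 13 negative. With each library left out in turn, this median ranged from -0.036 to 0.27. The lowest, without Pdx1 gRNA library 3, had 27 members negative, and the highest, without Pdx1 gRNA library 4, had 9. Of the 46 members, 1 had an unadjusted p under 0.05 with all libraries. That member was Gatm (ENSMUSG00000027199.14, chromosome 2, 122594467 to 122611303, minus strand, mm10), the amidinotransferase that starts creatine synthesis. It was at 19.7, 20.5, 25.8 and 13.9 CPM after control gRNA and 8.7, 4.35, 6.87 and 9.5 after Pdx1 gRNA, with 19.1, 11.5, 6.15 and 15.5 after PBS. The virus groups did not overlap (3.17% of all genes were lower without overlap), at -1.43 ± 0.33 (adjusted p = 0.809), and the PBS libraries overlapped both. DESeq2's Wald test called 14 genes, Gatm among them (adjusted p = 0.0332), and limma-voom called 0. The other members with the smallest p were Ahcy (0.92 ± 0.49, adjusted p = 0.8288), Bckdha (0.46 ± 0.28, adjusted p = 0.844), Mat1a (0.49 ± 0.34, adjusted p = 0.857) and Tat (0.45 ± 0.32, adjusted p = 0.858). In Tat the Pdx1 gRNA libraries, from 1696 CPM, all lay above the control gRNA libraries, up to 1574 CPM (3.48% of all genes were higher without overlap). These errors leave room for differences of the size seen, so members that fell in 1 comparison with PBS and not in the other were not shown to differ between guides.

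A wider list of 69 genes of amino acid metabolism and transport, 67 of them tested, held genes that fell and fewer that rose. After control gRNA 33 fell and 8 rose, which is 49.3% and 11.9% of the list, beside 15.8% and 16.3% of all genes. After Pdx1 gRNA 26 fell and 5 rose, 38.8% and 7.46% beside 10.4% and 11.7%, so the shares that rose were below those of all genes. The smallest p after control gRNA were those of Acadsb, a dehydrogenase of isoleucine breakdown (-1.45 ± 0.24 and -1.23 ± 0.24), Cdo1, which oxidises cysteine (-1.38 ± 0.25 and -1.38 ± 0.25), the glutamine transporter Slc38a3 (-1.34 ± 0.25 and -1.02 ± 0.25), Psat1 and Aldh6a1 of valine breakdown (-1.42 ± 0.26 and -1.29 ± 0.26). Each pair gives control gRNA and Pdx1 gRNA against PBS, with adjusted p from 0.00117 to 0.00225 in the former. Psat1, an aminotransferase of serine synthesis, was at 1.12 ± 0.625 CPM after PBS, 32.8 ± 27.1 after control gRNA and 19.5 ± 20.96 after Pdx1 gRNA (SD, n = 4). It rose in both (4.83 ± 0.87, adjusted p = 0.00225, and 4.08 ± 0.85, adjusted p = 0.00708). The genes that rose after control gRNA also included, named after their values were seen, Phgdh and Psph of serine synthesis, Aldh18a1 of proline synthesis, and Asns and Asrgl1, which make and break asparagine. Those that rose after Pdx1 gRNA included Psat1, Aldh18a1, Asns and Asrgl1.

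Among 14 transcription factors and receptors known to act on these genes, 8 fell after control gRNA (57.1%, beside 15.8% of all genes) and 4 after Pdx1 gRNA (28.6%, beside 10.4%), and 0 rose. Ppara, the fatty acid receptor of the fasting response, went from 181 ± 71.9 CPM to 27.9 ± 5.39 and 41.8 ± 10.6 CPM (SD, n = 4), at -2.70 ± 0.29 (adjusted p = 0.000153) and -2.11 ± 0.29 (adjusted p = 0.000725). Nr3c1, the glucocorticoid receptor (-0.92 ± 0.12 and -0.61 ± 0.12), and Klf15, which drives amino acid breakdown genes in fasting (-1.18 ± 0.20 and -1.01 ± 0.20), fell in both comparisons. Onecut1 (-1.82 ± 0.45, adjusted p = 0.00907) and Creb3l3 (-0.80 ± 0.20, adjusted p = 0.00979) fell after control gRNA and were not called after Pdx1 gRNA (-0.74 ± 0.43 and -0.53 ± 0.20).

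Markers of other cells and states moved beside these genes, and their part in the falls was not tested. The counts of called markers stand beside 15.8% of all genes called lower and 16.3% called higher after control gRNA, and 10.4% and 11.7% after Pdx1 gRNA. In lists this short, 1 call changes the share of a list by much. The summed CPM of 8 hepatocyte markers was 87111 to 127558 in PBS libraries, 60422 to 81522 in control gRNA libraries and 56956 to 117615 in Pdx1 gRNA libraries. Of the 8, 3 fell after control gRNA (37.5%) and 2 after Pdx1 gRNA (25%). Of 9 periportal genes, 7 of them members, 8 fell after control gRNA (88.9%) and 5 after Pdx1 gRNA (55.6%). Of 8 pericentral genes, the members Glul and Oat among them, 2 fell and 2 rose after control gRNA (25% each). After Pdx1 gRNA 3 of these 8 fell and 1 rose (37.5% and 12.5%). In summed CPM both lists were lower in every virus library than in every PBS library. Pericentral sums were 5941 to 11883 in PBS, 1613 to 4853 in control gRNA and 2235 to 4868 in Pdx1 gRNA libraries. Periportal sums were 14297 to 23660, 7959 to 9932 and 7662 to 13520 CPM in the same order. Cholangiocyte markers summed to 24.3 to 69.96 CPM after PBS, 58.9 to 405 CPM after control gRNA, with the maximum in library 1, and 46.0045 to 103 CPM after Pdx1 gRNA. Of these, 3 of 5 (60%) rose after control gRNA and 0 after Pdx1 gRNA. The 4 mitosis genes rose in both comparisons, with sums of 5.04 to 32.8 CPM in PBS, 42.0 to 94.6 CPM in control gRNA and 40.0 to 69.7 CPM in Pdx1 gRNA libraries. Macrophage genes rose in 2 of 7 and T and NK cell genes in 2 of 7 after control gRNA, 28.6% of each list beside 16.3% of all genes. After Pdx1 gRNA 0 of each rose, beside 11.7% of all genes. Of 5 sinusoidal endothelial markers, 2 fell after control gRNA (40%) and 3 after Pdx1 gRNA (60%). Of 5 erythroid markers 3 and 1 fell (60% and 20%), and of 6 stellate and fibroblast markers 1 and 0 (16.7% and 0%). None of the tested B and plasma cell or neutrophil markers was called in either. Kidney markers were at most 0.143 CPM in sum in every library. Comparing PBS libraries 2 and 3 with 1 and 4, 12 members were higher in both of the former and 5 were lower, 26.1% and 10.9% beside 21.5% and 22.1% of all genes, and 29 overlapped.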

How the data were processed

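Gene-level counts of 12 liver RNA-seq libraries were used as the authors deposited them, 1 count table per library. Per the file headers, counts were made with featureCounts 1.4.6-p4 on the GENCODE M13 annotation, from read pairs and without regard to strand, so overlapping and antisense genes cannot be separated. The submitters' processing notes name Trimmomatic 0.32, STAR 2.4.1a, DESeq2 1.22.0, R 3.5.1 and the mouse build mm10. Libraries were grouped by their labels into 3 groups of 4. The titles of the PBS and control gRNA libraries end in a bracketed number that those of the Pdx1 gRNA libraries lack. Its meaning is not given. Of 50600 gene IDs, 50376 matched a symbol. Genes were kept with edgeR's expression filter (minimum count 10), which left 15219, and library sizes were scaled by TMM. All libraries entered 1 fit of edgeR 4.0.16's robust quasi-likelihood test in R 4.3.3, with Benjamini-Hochberg adjustment across every gene tested. SE is the log2 fold change divided by the square root of F. RPKM is CPM per kilobase of exon length. The procedure was tested on simulated data, drawn from 1 mean per gene apart from planted changes. The simulation held no deviating library and no mix of sex patterns, so it cannot show how the procedure handles those.

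Within each of the 8 role groups, the up to 3 members with the smallest p in either comparison with PBS are given per library, with the 10 largest fold changes in each and the 5 smallest p between guides; from each wider list, up to 5 with the smallest p are named. Other members are named where they complete a group or were singled out after their values were seen. Some genes of the wider list are counted but not reported here by name. The members and lists were chosen with earlier results of these data known. The alternatives were other scalings and filters, DESeq2 1.42.0, limma-voom (limma 3.58.1), a fold threshold of 1.5, a replicate block, fits of 2 groups and left-out libraries. No library pair had counts that agreed within sampling noise.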

Additional observations from a re-analysis of the deposited data

Results flagged for a closer look

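In 8 of the 138 groups of 4 libraries examined (46 members in 3 groups), 1 library lay far from the other 3 by Dixon's test, which flags about 1 group in 20 by chance. PBS library 1 was the distant library in 4 of them. There Ahcy was at 345 CPM (next library 2099 CPM), Glud1 at 809 CPM (next 1616 CPM), Kynu at 108 CPM (next 244 CPM) and Ivd at 139 CPM (next 337 CPM). PBS library 4 had 699.8 CPM of Agxt, above 339 CPM in the next. Control gRNA library 4 had 19.5 CPM of Sdsl, below 26.9 CPM. Pdx1 gRNA library 3 had 2507 CPM of Tat, above 1831 CPM, and Pdx1 gRNA library 4 had 94.9 CPM of Bckdhb, below 109.97 CPM.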

How the results depend on the processing

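Over 26 alternatives, the lower calls of Aass, Afmid, Ahcy, Ftcd, Gls2, Got1, Haao and Mat1a after control gRNA held in every setting, and 0 of the members' calls after Pdx1 gRNA did. Calls that held in every setting were not counted over all genes. After Pdx1 gRNA, Aass, Agxt2, Gls2, Got1 and Sds were each called in 25 of the 26. Aass was lost without PBS libraries 2 and 3, and Agxt2, Gls2, Got1 and Sds against the fold threshold of 1.5. After control gRNA, 9 members fell in a test against a fold of 1.5 (3.90% of all genes) and 12 without PBS libraries 2 and 3 (7.05%). When each library was left out in turn, 25 to 37 fell (11.1 to 21.4% of all genes). After Pdx1 gRNA, 16 fell with the replicate block (7.24% of all genes), 1 against the fold threshold (1.19%) and 13 in a fit of only those 8 libraries (5.63%). In the same comparison 5 fell without PBS libraries 2 and 3 (3.40% of all genes). Without control gRNA library 1 and Pdx1 gRNA library 4 (chosen after the data were seen) 17 fell (6.21%). With each library left out, 12 to 36 fell (6.13 to 17.3% of all genes). On total counts the median after control gRNA was -0.74, and 2 members rose after control gRNA and 1 after Pdx1 gRNA (29.1% and 20.1% of all genes). Sdsl was lost after control gRNA, leaving 0 that rose, without the filter, with limma-voom, the replicate block, the fold threshold, only 8 libraries and both sets of left-out libraries, and 0 to 1 rose with each library left out. Between guides DESeq2 called 1 member lower. Signs turned in 4 genes, none of them called in the comparison: Nags after control gRNA to 0.056 (upper quartile), 0.29 (total counts), -0.14 to 0.012 with each library left out (positive without PBS library 3 or control gRNA library 1), 0.091 (without PBS libraries 2 and 3) and 0.013 (the chosen pair left out), and after Pdx1 gRNA to -0.093 without Pdx1 gRNA library 3 (to 0.18 without the others); Bckdhb after Pdx1 gRNA to 0.22 (total counts) and 0.0050 without PBS library 1 (down to -0.12 without another); Bhmt after control gRNA from -0.48 to 0.017 and Kmo after Pdx1 gRNA from -0.81 to 0.0034 (both without PBS libraries 2 and 3). The block used replicate numbers, and the labels do not say whether a shared number pairs libraries. Of 12 same-numbered pairs, 3 had a correlation above 0.1 (range -0.448 to 0.224), and 2 of 12 libraries correlated best with their own number. With so few libraries per group, these correlations cannot decide whether the numbers pair libraries. Fits that left out PBS libraries 2 and 3 had fewer samples and kept only PBS libraries 1 and 4. The cause of the shifts, in these fits and in the other settings, was not tested. The lowest count of any member in any library was 59, and depth was not tested.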
